A study of Mus musculus with 18 samples.

Results

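Elavl4, Meis2, Six3 and Twist1 are 4 developmental regulators that were read at low levels in bone marrow-derived macrophages (BMDMs), 4 of 49315 genes counted in 18 libraries. They were selected on their measured counts, because WT-NAC libraries held more counts of them than HDAC3 KO-NAC or WT-AC libraries, so their values in those 9 libraries are given as a description, and no test on them there is used as a result. The study asked how deletion of the histone deacetylase HDAC3 in myeloid cells alters the response of macrophages to dying cells. The libraries fall into 6 groups of 3, and the labels call the control genotype WT where the study's methods call it HDAC3 f/f. Mice labelled HDAC3 KO (M-HDAC3-/-) carried loxP sites around exon 7 of Hdac3 and Cre recombinase from the Lyz2 locus, which is active in myeloid cells, on a C57BL/6J background, and the controls carried the floxed Hdac3 gene. BMDMs were grown from femur marrow in medium conditioned by L929 fibroblasts. Within each genotype they were left untreated (NO Treatment), cocultured with untreated human K562 leukaemia cells (non-apoptotic cells, NAC), or cocultured with K562 cells that had been exposed to UV-B for 15 min and left for 2 h (apoptotic cells, AC). Coculture lasted 45 min, and the BMDMs were then washed and kept for 5 h. Replicates were described as separate biological samples, but whether a replicate number marks the same animal in different groups was not stated.

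The genes are best known from developing tissues other than macrophages. Elavl4 encodes HuD, an RNA-binding protein of postmitotic neurons that binds AU-rich elements and stabilises messenger RNAs. Meis2 encodes a TALE-class homeodomain protein that partners with PBX and HOX proteins in limb, heart, neural crest and brain development. Six3 encodes a homeodomain protein of the anterior neural plate, needed for the forebrain and the eye. Twist1 encodes a basic helix-loop-helix (bHLH) protein of mesoderm and cranial neural crest that dimerises with E proteins and can drive epithelial-mesenchymal transition.

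The 4 genes lie on different chromosomes of GRCm38. Elavl4 (ENSMUSG00000028546) occupies chr4:110203722-110351909 on the reverse strand, Meis2 (ENSMUSG00000027210) chr2:115863064-116065839 on the reverse strand, Six3 (ENSMUSG00000038805) chr17:85613608-85629302 on the forward strand, and Twist1 (ENSMUSG00000035799) chr12:33957671-33959817 on the forward strand. Their counted exons total 5387, 12043, 5446 and 1616 bases. The 250 bases before a RefSeq transcription start are shown for each, 5′ to 3′ on the strand of the gene. CG dinucleotides are in capitals (RefSeq, GRCm38.p6). The windows are chr4:110351912-110352161 for Elavl4, chr2:116064620-116064869 for Meis2, chr17:85620584-85620833 for Six3 and chr12:33957421-33957670 for Twist1. For Elavl4, which has 4 such windows, the one nearest the 5′ end of the gene was taken. The Meis2 and Six3 windows lie inside the span given for their gene, and the Six3 window also lies within the antisense gene Gm28528.
Elavl4: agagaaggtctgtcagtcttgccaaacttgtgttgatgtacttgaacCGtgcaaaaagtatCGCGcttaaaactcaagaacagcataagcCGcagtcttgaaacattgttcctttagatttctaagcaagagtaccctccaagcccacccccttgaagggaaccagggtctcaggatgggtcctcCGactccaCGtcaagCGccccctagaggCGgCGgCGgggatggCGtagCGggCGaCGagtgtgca
Meis2: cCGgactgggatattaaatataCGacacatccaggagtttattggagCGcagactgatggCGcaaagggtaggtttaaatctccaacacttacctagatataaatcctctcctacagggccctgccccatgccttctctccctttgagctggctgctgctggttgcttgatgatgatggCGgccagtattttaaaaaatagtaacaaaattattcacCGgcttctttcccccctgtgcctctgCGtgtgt
Six3: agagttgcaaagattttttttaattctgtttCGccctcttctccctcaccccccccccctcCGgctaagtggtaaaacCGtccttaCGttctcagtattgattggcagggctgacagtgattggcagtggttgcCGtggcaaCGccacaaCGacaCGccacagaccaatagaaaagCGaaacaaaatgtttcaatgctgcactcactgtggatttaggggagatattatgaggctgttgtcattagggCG
Twist1: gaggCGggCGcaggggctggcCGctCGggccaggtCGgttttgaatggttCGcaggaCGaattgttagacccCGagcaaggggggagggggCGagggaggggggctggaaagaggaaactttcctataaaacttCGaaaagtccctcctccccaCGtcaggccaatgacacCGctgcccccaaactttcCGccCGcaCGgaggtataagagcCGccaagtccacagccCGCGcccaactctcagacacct
The windows held 14, 7, 10 and 18 CG dinucleotides in that order, against a median of 6.0 over 32851 windows of the same length. As many CG dinucleotides were found in 29.4% of all windows for Elavl4, 46.3% for Meis2, 37.8% for Six3 and 21.7% for Twist1. The letters TGACAG, which MEIS proteins are known to bind, were searched on both strands and occurred 1 time each in the Elavl4 and Six3 windows and in 15.9% of all windows. The E-box letters CANNTG, the general site of bHLH proteins, which read the same on both strands, occurred in none of these 4 windows and in 66.2% of all windows. A match of letters is a description of the sequence and not a binding site.

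The libraries held between 4704491 and 26421267 counts (median 16477929), the fewest in untreated HDAC3 KO replicate 1. Levels are given as counts per 1000000 counts of the library (CPM), on totals scaled by TMM, a factor that offsets differences in library composition. Where no read was counted, counting error leaves room for 3 counts, or 0.115 to 0.754 CPM depending on the library. All 12 macrophage marker genes were tested in each comparison, and their summed level was 15119 to 33001 CPM, so the labelled cell type was borne out by its defining genes. Hdac3 was 3.38 to 48.7 CPM in WT libraries and 4.66 to 74.6 CPM in HDAC3 KO libraries, so its count did not separate the genotype labels. A count over the whole gene includes exons outside the floxed exon 7, so it does not check the deletion.

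Elavl4 was highest in WT-NAC libraries. Its raw counts in replicates 1, 2 and 3 were 65, 42 and 67 in WT-NAC, 14, 0 and 3 in untreated WT, and 16, 0 and 0 in WT-AC. In HDAC3 KO libraries the NAC group gave the fewest, with 5, 1 and 1 counts, against 7, 27 and 56 untreated, and 21, 23 and 17 with AC. Every WT-NAC library was above every library of each other group in CPM. Mean levels were 4.88 ± 2.13 CPM in WT-NAC, 1.97 ± 0.727 in untreated HDAC3 KO, 0.974 ± 0.17 in HDAC3 KO-AC, 0.559 ± 0.968 in WT-AC, 0.364 ± 0.495 in untreated WT and 0.124 ± 0.0992 in HDAC3 KO-NAC (SD, n = 3 each). The first 3 groups in that order did not overlap, whereas from HDAC3 KO-AC downward neighbouring groups overlapped. In untreated WT and in WT-AC, most of the counts came from replicate 1.

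Meis2 gave the most counts of the 4 genes, 514 over all libraries. Its counts were 124, 26 and 61 in WT-NAC, 24, 3 and 1 in untreated WT, and 19, 4 and 18 in WT-AC. In HDAC3 KO they were 11, 3 and 4 with NAC, 17, 30 and 56 untreated, and 30, 27 and 56 with AC. WT-NAC replicate 1 stood far above all other libraries at 13.9 CPM, while WT-NAC replicate 2, at 1.98 CPM, lay within the range of WT-AC, untreated HDAC3 KO and HDAC3 KO-AC. Mean levels were 6.55 ± 6.41 CPM in WT-NAC, 2.86 ± 1.37 in untreated HDAC3 KO, 2.02 ± 1.52 in HDAC3 KO-AC, 1.14 ± 0.868 in WT-AC, 0.6 ± 0.859 in untreated WT and 0.322 ± 0.179 in HDAC3 KO-NAC. Each group overlapped its neighbours in this order.

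Six3 was the scarcest, with 191 counts in all. It gave 56, 15 and 19 counts in WT-NAC, 9, 3 and 1 in untreated WT, and 3, 0 and 1 in WT-AC. The HDAC3 KO libraries gave 4, 0 and 1 with NAC, 5, 13 and 24 untreated, and 8, 23 and 6 with AC. The WT-NAC libraries were above all untreated WT, WT-AC, HDAC3 KO-NAC and HDAC3 KO-AC libraries, and overlapped with untreated HDAC3 KO. Mean levels were 2.86 ± 2.95 CPM in WT-NAC, 1.04 ± 0.325 in untreated HDAC3 KO, 0.56 ± 0.356 in HDAC3 KO-AC, 0.269 ± 0.288 in untreated WT, 0.126 ± 0.166 in WT-AC and 0.0751 ± 0.0982 in HDAC3 KO-NAC, and each group overlapped its neighbours. Six3 overlaps the antisense genes Six3os1, with 6 counts over all libraries and 0 in WT-NAC, and Gm28528, with 9 counts of which 5 were in WT-NAC. Whether the counting used strand is not given in the sources used here, so reads of Six3 and of these antisense genes cannot be told apart where they share bases.

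Twist1 gave 87, 19 and 29 counts in WT-NAC, 8, 1 and 1 in untreated WT, and 8, 6 and 4 in WT-AC. In HDAC3 KO it gave 5, 0 and 7 counts with NAC, 16, 23 and 53 untreated, and 25, 36 and 23 with AC. The lowest CPM in WT-NAC, untreated HDAC3 KO and HDAC3 KO-AC was 1.45, 1.17 and 0.962, and the highest in untreated WT, WT-AC and HDAC3 KO-NAC was 0.53, 0.838 and 0.273. Mean levels were 4.33 ± 4.69 CPM in WT-NAC, 2.61 ± 1.42 in untreated HDAC3 KO, 1.34 ± 0.331 in HDAC3 KO-AC, 0.494 ± 0.305 in WT-AC, 0.212 ± 0.275 in untreated WT and 0.169 ± 0.148 in HDAC3 KO-NAC. Per kilobase of counted exon, which allows levels of different genes to be set side by side, Twist1 was the highest in WT-NAC at 2.68 CPM per kb, against 0.906 for Elavl4, 0.544 for Meis2 and 0.526 for Six3.

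**Figure D1:**
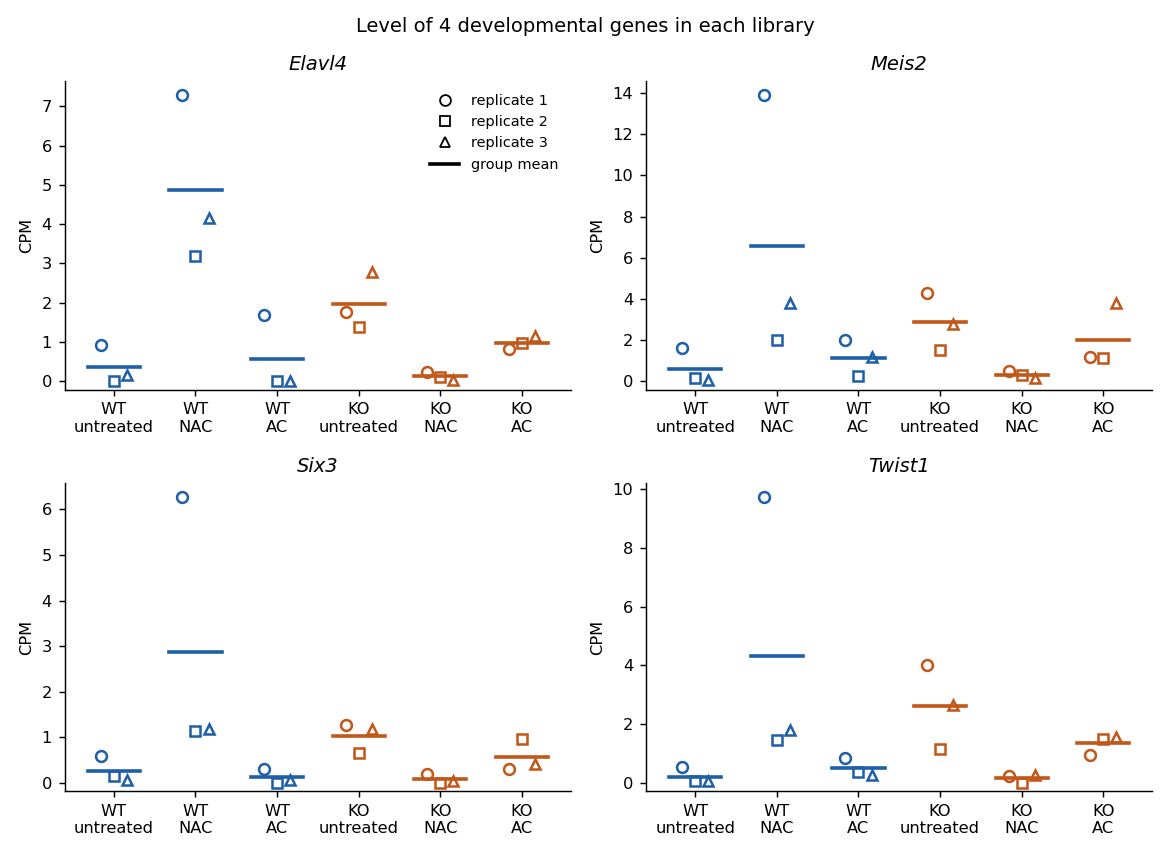
Level of each gene in CPM (vertical axis, linear, scaled separately for each gene) in the 18 libraries, by group along the horizontal axis; symbols are replicates 1 to 3 and the horizontal lines are group means. In all 4 panels the WT-NAC mean is the highest and the HDAC3 KO-NAC mean the lowest, and WT-NAC replicate 1 is the highest single library.

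The WT-NAC libraries held 55.0% of the summed CPM of Elavl4 over all 18 libraries, 48.5% of Meis2, 58.1% of Six3 and 47.3% of Twist1. Without WT-NAC replicate 1 these shares were 38.1%, 21.7%, 27.3% and 18.3%, so for Meis2, Six3 and Twist1 a single library carried more than the other two of its group together. Summed over the 4 genes, WT-NAC replicates 1, 2 and 3 held 332, 102 and 176 counts, whereas HDAC3 KO-NAC replicates held 25, 4 and 13. Untreated HDAC3 KO replicates held 45, 93 and 189, which is 11.3, 4.75 and 9.4 CPM, and untreated WT replicates held 55, 7 and 6, which is 3.64, 0.361 and 0.329 CPM. Within untreated WT, WT-AC and HDAC3 KO-NAC, replicate 1 gave the most counts of the 4 genes together. In the fit of HDAC3 KO-NAC against WT-NAC over all genes 103 of 11923 genes (0.864%) were called, all 4 of these among them, from which nothing is read because the contrast chose them. For WT-AC against WT-NAC, which shares the WT-NAC libraries, 0 of 11844 genes (0%) were called by edgeR after Benjamini-Hochberg adjustment and 0 by DESeq2, with 493 at an unadjusted p under 0.05 in edgeR. In bulk RNA, fewer cells that express a gene and less of its RNA per cell cannot be told apart.

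The untreated libraries, which the rule for choosing the genes did not use, allow the genotypes to be compared. The genes were, however, chosen with earlier results of these data known. Twist1 was higher in untreated HDAC3 KO than in untreated WT, by 3.45 ± 0.947 on the log2 scale (SE), with an adjusted p of 0.0391 by edgeR's quasi-likelihood test, and every HDAC3 KO library was above every WT library. Untreated WT libraries, with at most 8 counts of Twist1, were all below the minimum count of 10, so the gene entered the fit through its high group; without that filter its adjusted p in edgeR was 0.0111. For the other 3 genes, untreated WT replicate 1 alone of its group reached this minimum, which the filter scales to library size. Its counts were 14 for Elavl4, 24 for Meis2 and 9 for Six3. These 3 genes had positive estimates that did not pass the threshold of 0.05 after adjustment over all genes. These were 2.35 ± 1.00 for Elavl4 (adjusted p = 0.11), 2.08 ± 0.969 for Meis2 (adjusted p = 0.136) and 1.79 ± 0.908 for Six3 (adjusted p = 0.165). The groups did not overlap for Elavl4, Six3 and Twist1, and for Meis2 untreated HDAC3 KO replicate 2, at 1.53 CPM, was below untreated WT replicate 1, at 1.59 CPM. Two-sided exact permutation tests gave p = 0.1 for Elavl4, Six3 and Twist1, the smallest value that 3 libraries against 3 allow, and p = 0.2 for Meis2. Across all genes, 1404 of 12101 (11.6%) were called in this comparison and 4952 (40.9%) did not overlap between the groups, so lack of overlap was common. The split of those calls depended on the scaling, with 368 of 1404 higher in HDAC3 KO under TMM, 749 of 1637 under the size factors of DESeq2 and 54 of 2405 under library totals alone. The 4 fold changes were positive under all 3 scalings.

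The Twist1 call rested on each of 5 libraries. Without untreated WT replicate 1, 2 or 3 its adjusted p in edgeR was 0.0504, 0.188 or 0.112, and without untreated HDAC3 KO replicate 2 or 3 it was 0.0659 or 0.088. Its log2 fold change stayed between 2.95 and 5.25 when single libraries were left out. That of Meis2 ranged from 1.51 to 4.46 and that of Six3 from 1.27 to 3.01. With the Wald test of DESeq2 Twist1 had an adjusted p of 0.00236, Elavl4 passed at 0.0467 and Meis2 had 0.055, while DESeq2 gave no adjusted p for Six3. Elavl4 also passed in edgeR without untreated HDAC3 KO replicate 1, the shallowest library (adjusted p = 0.0149). Over all alternatives the adjusted p ranged from 0.00209 to 0.188 for Twist1, 0.0149 to 0.307 for Elavl4, 0.0359 to 0.384 for Meis2 and 0.128 to 0.428 for Six3.

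In HDAC3 KO cells, none of the 4 genes passed the test between AC and no treatment. The log2 fold changes of HDAC3 KO-AC against untreated HDAC3 KO were -0.89 ± 0.692 for Elavl4 (adjusted p = 0.53), -0.38 ± 0.699 for Meis2 (adjusted p = 0.802), -0.69 ± 0.796 for Six3 (adjusted p = 0.684) and -0.79 ± 0.699 for Twist1 (adjusted p = 0.585, all by edgeR). Each HDAC3 KO-AC library was below each untreated HDAC3 KO library for Elavl4, whose exact permutation p was 0.1, a lack of overlap found in 21.5% of the genes tested, and for Meis2, Six3 and Twist1 the groups overlapped, with exact permutation p of 0.5, 0.2 and 0.3. This comparison shares the untreated HDAC3 KO libraries with the one between genotypes. Over all genes edgeR called 0 of 12136 (0%), with 1761 at an unadjusted p under 0.05, and DESeq2 called 5 of the 1311 genes to which it gave an adjusted p, so a difference in the 4 genes was not detectable here rather than shown to be absent.

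**Figure D2:**
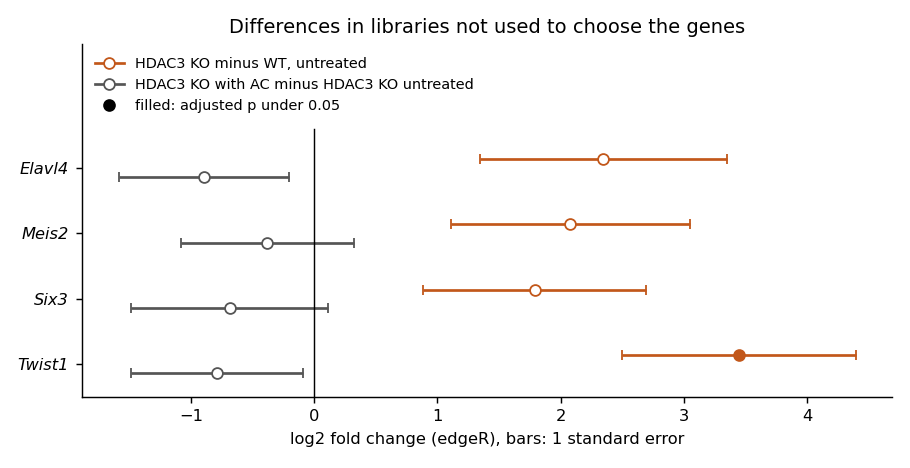
Log2 fold change of each gene (horizontal axis) between untreated genotypes (orange) and between HDAC3 KO cells with AC and untreated (grey). Bars are 1 standard error, computed from the F statistic of edgeR, and filled points have an adjusted p under 0.05. The genotype estimates run from 1.79 to 3.45 with Twist1 alone filled, and the estimates for AC run from -0.89 to -0.38.

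Relatives and partners of the 4 genes were examined from 4 lists. Of 12 further neuronal and ELAVL-related RNA-binding protein genes 5 were tested and none was called in any of the 4 comparisons. Over all genes the shares called were 0.864%, 0%, 11.6% and 0% (HDAC3 KO-NAC against WT-NAC, WT-AC against WT-NAC, untreated genotypes, and HDAC3 KO-AC against untreated), so a lack of calls among a few genes is not a result about a list. The most abundant of them were Celf2 and Celf1, splicing regulators present in many tissues, at means of 82.2 and 27.0 CPM over the 18 libraries. Of 15 TALE homeobox genes and HOX partners 8 were tested and none was called, with the co-repressor Tgif1 (82.6 CPM) and the MEIS partner Pbx2 (62.4 CPM) highest. Of 19 relatives of Six3, their Eya cofactors and other eye field genes 7 to 9 were tested and none was called, with the cofactor Eya3 (23.6 CPM) and the co-repressor Tle3 (16.2 CPM) highest. Rax, a defining eye field gene, had no count in any library, and Six2, Six6 and Otx2 had 10 or fewer over all 18.

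Of 16 genes for TWIST relatives, E proteins and mesenchymal transition factors 10 or 11 were tested, and Hand2, a bHLH gene of heart, limb and sympathetic neuron development, was the single gene called outside the libraries that chose the 4 genes. That is 1 of 10 tested between untreated genotypes, near the 11.6% called over all genes, so nothing is read about the list. Hand2 counts were 123, 16 and 35 in WT-NAC, 6, 1 and 2 in untreated WT and 10, 0 and 0 in WT-AC, and 5, 0 and 1 in HDAC3 KO-NAC, 7, 30 and 49 in untreated HDAC3 KO and 14, 22 and 8 in HDAC3 KO-AC. It was higher in untreated HDAC3 KO than in untreated WT, by 3.25 ± 0.852 on the log2 scale (SE, adjusted p = 0.0347 in edgeR, and 0.0238 without the filter on low counts). It too entered that fit through untreated HDAC3 KO, and its call was lost without any single library other than untreated HDAC3 KO replicate 1, with adjusted p of 0.0672 to 0.174. Its counts in WT-NAC and HDAC3 KO-NAC, the libraries that chose the 4 genes, did not overlap and are given as a description. The bHLH inhibitors Id2 and Id3 were the most abundant of the list, at 210 and 145 CPM. For the untreated genotypes the median log2 fold changes of the lists, in the order given, were -0.36, 0.39, 0.44 and 0.42, against 0.06 over all genes tested. Among paralogs, named after their values were seen, Elavl2 had 5, 0 and 0 counts in WT-NAC, Elavl3 3, 6 and 3, Meis1 18, 16 and 25, and Twist2 0, 0 and 0. Elavl1, the widely expressed member of its family, had 182, 428 and 205 there, and Meis3 had 251, 151 and 397, more than Elavl4 and Meis2.

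The genes next to each of the 4 were also counted. Around Elavl4, Dmrta2 had 10 counts in the WT-NAC libraries together and Agbl4 had 0 in all 18. Beside Meis2, BC052040 had 53 and the noncoding 2700033N17Rik, 378 bases away, had 1. Six2, next to Six3, had 1, and Gm27801, on its other side, and 5 small noncoding genes within Six3 had 0 in all libraries. Ferd3l, a bHLH gene next to Twist1, had 0 in all libraries, and Hdac9 on the other side had 37.

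The genes varied together across the 18 libraries. Pearson's r of log2 CPM between pairs of the 4 ranged from 0.867 to 0.914, a description over libraries that share groups and depth. The libraries that chose the genes are among the 18, so the choice fixed part of this likeness. Among 13589 genes searched, the 3 most like each gene came from 7 genes. Nefm, a neurofilament subunit (r = 0.961), Hand2 (0.955) and Cacng4, a regulator of AMPA-type glutamate receptors (0.926), were nearest to Elavl4. The neuronal growth-associated gene Stmn2 (0.942), Gm7308 (0.942) and the orphan nuclear receptor gene Esrrg (0.921) were nearest to Meis2. Hand2 (0.961), Cacng4 (0.95) and the imprinted gene Rtl1 (0.943) were nearest to Six3, and Esrrg (0.92), Rtl1 (0.916) and Hand2 (0.914) to Twist1. All 7 had their highest group mean in WT-NAC and the second highest in untreated HDAC3 KO, and WT-NAC replicate 1 was the highest library of each. They were picked for likeness to the 4 genes over these same libraries, so a shared order is part of the search and not a further result.

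**Figure D3:**
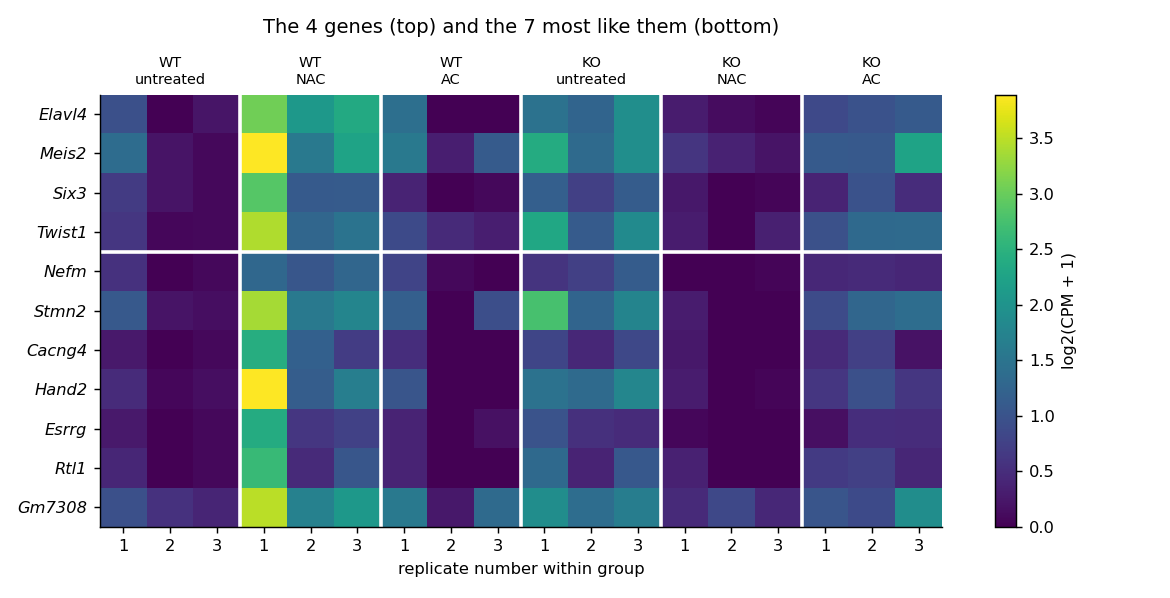
Level of the 4 genes (above the white line) and of the 7 genes most like them (below) in each of 18 libraries, as log2(CPM + 1) on a colour scale; columns are replicates 1 to 3 of each labelled group. Summed over the 4 genes, WT-NAC replicate 1 is the highest library at 37.2 CPM, WT-NAC replicates 2 and 3 (7.77 and 10.9) lie within the range of untreated HDAC3 KO (4.75 to 11.3), and untreated WT replicate 3 (0.329) is the lowest.

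Markers of other cell types were read alongside. Of 12 neuron genes 3 or 4 were tested, and none was called outside the contrast of HDAC3 KO-NAC with WT-NAC, in whose libraries the 4 genes were chosen. There Stmn2 had 83, 26 and 39 counts in WT-NAC and 5, 0 and 0 in HDAC3 KO-NAC, and Nefm had 13, 14 and 23 in WT-NAC and 0, 0 and 1 in HDAC3 KO-NAC, which is a description. Summed over the list, neuron genes reached 19.2 to 38.7 CPM in WT-NAC, 8.41 to 13.3 in untreated WT, 12.2 to 23.9 in WT-AC, 21.8 to 31.1 in untreated HDAC3 KO, 7.87 to 15.6 in HDAC3 KO-NAC and 11.1 to 19.2 in HDAC3 KO-AC. The ranges of WT-NAC and HDAC3 KO-NAC, and those of the untreated genotypes, did not overlap, as was the case for 25.9% and 38.2% of 13589 single genes with at least 10 counts in at least 3 libraries. The defining neuron genes Dcx, Nefl, Gap43 and Slc17a6 had 10 or fewer counts over all 18 libraries, and most of the sum came from Syp and Tubb3. Fibroblast genes, from 10 to 11 of 12 tested, and genes of erythroid and K562 cells, 4 of 16 tested, gave no call in any comparison, from which nothing is read at the shares called over all genes. The part of neuron marker genes in the levels of the 4 genes was not tested.

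A list of 14 sympathetic neuron lineage genes was added after Hand2 had been seen, and is described without a test. The summed list was 8.08 to 38.3 CPM in WT-NAC, 5.16 to 12.1 in untreated HDAC3 KO, 3.91 to 7.7 in HDAC3 KO-AC, 1.6 to 5.19 in WT-AC, 1.81 to 4.7 in untreated WT and 0.885 to 1.59 in HDAC3 KO-NAC. Hand2 and Stmn2, already described, gave 123 and 83 of the 342 counts of the list in WT-NAC replicate 1. Gata2 had 56, 20 and 20 counts in WT-NAC and 4, 5 and 11 in HDAC3 KO-NAC. It also had 8, 3 and 32 in WT-AC and 43, 13 and 43 in HDAC3 KO-AC. Its mean in HDAC3 KO-AC, 1.7 CPM, was above that in untreated HDAC3 KO, 1.07 CPM, unlike the 4 genes. Isl1 had 43, 4 and 9 counts in WT-NAC and 4, 0 and 0 in HDAC3 KO-NAC. Phox2a and Ret had their highest group mean in WT-NAC, at 0.706 and 0.855 CPM. Gata3 did not, with means of 0.876 CPM in untreated WT, 0.655 in WT-NAC and 0.453 in untreated HDAC3 KO. Mycn had 2, 23 and 0 counts in WT-NAC and 11, 5 and 10 in untreated WT. Th, the defining enzyme of noradrenaline synthesis in these neurons, had no count in any library, and Dbh, Chga and Chgb had 10 or fewer over all 18.

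**Figure D4:**
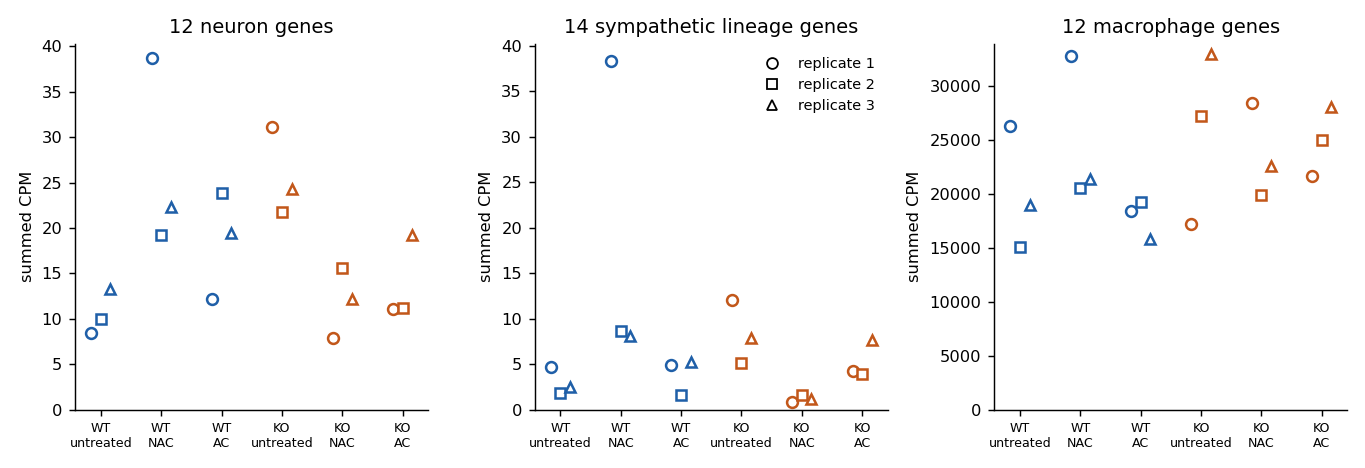
Summed CPM (vertical axes, linear from 0) of 12 neuron, 14 sympathetic lineage and 12 macrophage genes in each library, by group along the horizontal axis, with symbols for replicates 1 to 3. WT-NAC replicate 1 is the highest library in the neuron and sympathetic panels, at 38.7 and 38.3 CPM, while macrophage genes lie between 15119 and 33001 CPM across all groups.

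Macrophage genes and measures of library composition were set beside the same groups. Lyz2, the lysozyme gene that carries Cre in these mice, and Mrc1, a mannose receptor gene, were lower in untreated HDAC3 KO than in untreated WT, with log2 fold changes of -1.94 ± 0.55 (adjusted p = 0.0425) and -1.50 ± 0.425 (adjusted p = 0.0415) in edgeR. They were the 2 of 12 macrophage genes called there, against 11.6% of all genes, and both calls were lost without any single library other than untreated HDAC3 KO replicate 1. Of the 12 genes 8 had a positive estimate in untreated HDAC3 KO, none past the threshold, and the median log2 fold change of the list was 0.57 against 0.06 over all genes tested. Without the filter Mrc1 had an adjusted p of 0.0616, and with a replicate block Lyz2 had 0.0691. The mean GC content of transcripts, weighted by their counts, was 53.3 to 54.5% in WT-NAC and 52.5 to 53.1% in HDAC3 KO-NAC. It was 54.0 to 55.0% in untreated HDAC3 KO and 52.1 to 52.7% in untreated WT. With AC it was 52.8 to 54.4% in WT, overlapping WT-NAC, and 52.9 to 54.0% in HDAC3 KO. The transcripts of the 4 genes themselves had a GC content of 39.0% for Elavl4, 47.2% for Meis2, 55.4% for Six3 and 59.3% for Twist1. Mitochondrial genes gave 0.294 to 0.404% of counts in WT-NAC and 0.409 to 0.577% in HDAC3 KO-NAC. Their share was 0.272 to 0.434% in untreated HDAC3 KO and 0.496 to 0.621% in untreated WT. With AC it was 0.341 to 0.48% in WT and 0.493 to 1.19% in HDAC3 KO. Counted gene length, weighted by counts, was 2958 to 3232 bases in WT-NAC and 3299 to 3490 in HDAC3 KO-NAC. It overlapped between untreated HDAC3 KO (3073 to 3444) and untreated WT (3184 to 3646). The 1405 olfactory receptor genes, which macrophages are not known to use, summed to 1.78 to 14.4 CPM on unscaled library totals, from 2.51 to 14.4 in WT-NAC and from 4.03 to 4.48 in HDAC3 KO-NAC, so these groups overlapped. The part of GC content, mitochondrial share, counted length or such background reads in the levels of the 4 genes was not tested.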

How the data were processed

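RNA from 18 BMDM libraries, 3 in each of 6 groups, was prepared with an NEBNext Ultra II RNA kit and sequenced. Per the labels, the deposited values are whole counts of reads per gene for each library, without normalization. The submitters' processing notes name Trimmomatic 0.36, STAR 2.5.2b, featureCounts of Subread 1.5.2 and the build GRCm38. The annotation release and the strand setting are not given in the sources used here. Counts were read for 49315 Ensembl genes, 48970 of which were matched by identifier to GENCODE M21 for symbols and positions, and 44772 of those had the same start and end. Groups came from the sample labels.

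The 4 comparisons were each fitted on their own 6 libraries with edgeR 4.0.16 in R 4.3.3 (filterByExpr with a minimum count of 10 and a minimum total count of 15, TMM, robust glmQLFit, glmQLFTest), with Benjamini-Hochberg adjustment over all genes tested and a threshold of 0.05. CPM used TMM factors over 18 libraries, exact permutation tests used log2(CPM + 1), and likeness used log2 CPM with a prior count of 2 among genes with at least 10 counts in at least 3 libraries. The SE of a log2 fold change was computed as its absolute value over the square root of edgeR's F statistic. The fits were tested on simulated data. The 4 genes and the lists were chosen with earlier results of these data known, and the sympathetic list after its genes had been seen. From each family list the called genes and the 2 most abundant are named, with the genes next to each member, the 3 genes most like it, Hdac3 and Lyz2. Alternatives were DESeq2 1.42.0 (Wald test), its size factors, library totals alone, no filter, all 18 libraries in 1 fit, a replicate block and each library left out. The labels call the replicates biological, and the methods of the study give 3 animals per group. Promoter sequences were taken from a RefSeq table of GRCm38.p6. Values of some genes of the lists are not reported here.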

Additional observations from a re-analysis of the deposited data

Results flagged for a closer look

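In each of the 4 genes, the effect of NAC ran in opposite directions in the 2 genotypes. Every WT-NAC library was above every untreated WT library, and every HDAC3 KO-NAC library was below every untreated HDAC3 KO library. Of 13589 genes with at least 10 counts in at least 3 libraries, 15.2% had such opposite effects of NAC without overlap, in either direction. The effect of NAC on log2(CPM + 1) in WT minus that in HDAC3 KO was 3.49 for Elavl4, 3.52 for Meis2, 2.29 for Six3 and 3.37 for Twist1. These differences between genotypes were not tested, and the choice of the genes for high counts in WT-NAC and low counts in HDAC3 KO-NAC fixed part of them.

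The same libraries gave opposite differences when AC was set against NAC. Elavl4, Six3 and Twist1 were lower with AC than with NAC in every WT library and higher in every HDAC3 KO library, and the effect in WT minus that in HDAC3 KO was -2.84, -2.05 and -2.51. Such opposite effects without overlap were found in 1.95% of the same genes. For Meis2 the WT-AC and WT-NAC libraries overlapped. The difference between genotypes ran the opposite way untreated and with NAC for Elavl4, Six3 and Twist1, by 3.49, 2.29 and 3.37 on the same scale, and with AC and with NAC for Twist1, by 2.51, as in 12.7% and 2.01% of the same genes. None of these differences was tested, and all use WT-NAC or HDAC3 KO-NAC libraries that chose the genes. The choice thus fixed part of them, and shares over genes not chosen this way are not a like reference.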

How the results depend on the processing

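The fold changes of the 4 genes between untreated genotypes stayed positive in all 46 values from the alternatives, and 37 of them kept their side of the threshold. Elavl4 passed with the DESeq2 Wald test (2.46) and ranged from 1.74 to 4.41 with single libraries left out, passing in 1 of these. Twist1 ranged from 2.95 to 5.25 and lost its call in 5. For HDAC3 KO-AC against untreated HDAC3 KO, 43 of 44 values kept their direction. Meis2 ranged from -1.11 to 0.01 and changed sign without untreated HDAC3 KO replicate 1.

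In each comparison, at least 1 of the 3 pairs of same-numbered libraries did not deviate together (correlations -0.429 to 0.295 over all pairs), so the numbers are not taken as pairs. With a replicate block Elavl4 (3.13, adjusted p = 0.0499) and Meis2 (2.96, adjusted p = 0.0359) also passed between untreated genotypes in edgeR, and Six3 did not. These genes entered the fit mainly through untreated HDAC3 KO libraries. The replicate block gave 217 calls for HDAC3 KO-NAC against WT-NAC, 1336 between untreated genotypes and 0 in the other 2 comparisons.

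Counts of called genes moved widely, and the cause was not tested. HDAC3 KO-NAC against WT-NAC gave 103 calls, 441 with DESeq2, 16 on library totals alone, 575 without a filter, 0 in a fit of all 18 libraries and 0 to 3121 with single libraries left out. Untreated genotypes gave 1404 calls, 3278 with DESeq2, 2405 on library totals, 3308 with all 18 libraries and 0 to 5887 with single libraries left out. WT-AC against WT-NAC gave 47 calls without a filter and 0 to 1 with single libraries left out. HDAC3 KO-AC against untreated HDAC3 KO gave 5 with DESeq2, 30 without a filter and 0 to 16 with single libraries left out. Library totals in place of TMM moved the median log2 fold change of all genes between untreated genotypes from 0.0579 to -0.421. The 4 genes had 191 to 514 counts each over 18 libraries, so low groups rest on few reads.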
